A study of Mus musculus with 30 samples.

Results

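The hypothalamus of newborn female mice was compared 12 h and 6 h after a single injection of estradiol benzoate (EB), an esterified estradiol that is released slowly from the injection site. The comparison took the 3 arrays of the EB 12 h group and the 3 arrays of the EB 6 h group by their labels, 6 of the 30 arrays of the series. All the mice were C57BL/6J females given 7.5 μg EB in peanut oil, or the oil alone (vehicle), under the skin as newborns on their first day, and the tissue was taken after 1, 3, 6, 12 or 24 h. Each array (GeneChip Mouse Genome 430 2.0) held RNA of 1 hypothalamus, with 3 arrays in each of 10 groups. Both groups compared here carry the same EB dose, so the difference between them is one of hours since the injection, together with 6 h of postnatal life and of the day. The vehicle 12 h and vehicle 6 h groups, from other mice, give the same interval without EB. The labels and methods say nothing of litters, so mice of one group may be siblings.

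Around birth the rodent hypothalamus has made most of its neurons and turns to making glia. Astrocytes, which clear transmitter and regulate water and ions, acquire the intermediate filament protein GFAP, the calcium-binding protein S100B and the water channel aquaporin-4. Microglia, the resident macrophages, are spreading and carry the complement components C1q and the colony stimulating factor 1 receptor. Immature neurons lose doublecortin as they settle and build the vesicle proteins of synapses. Estradiol, which in the male brain is made locally from testicular androgen, acts in this window on neurons and on glia, and given to newborn females it shifts the hypothalamus towards a male form.

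The arrays of the 2 groups differed in overall brightness before any scaling. The median signal of the 3 EB 12 h arrays was 62.5, 61.4 and 52.9, against 35.4, 35.4 and 44.0 on the EB 6 h arrays, and the 12 h arrays of both treatments were the 6 brightest of the 30. The vehicle arrays showed the same split, with medians of 61.5 to 66.9 at 12 h and 36.5 to 36.9 at 6 h. The spiked bacterial hybridization controls, which do not come from the tissue, were brighter too, at 1755, 1882 and 1631 on the EB 12 h arrays against 1161, 1179 and 1412 on the EB 6 h arrays. The third EB 6 h array was thus the brightest of its group. After scaling, the signal of the middle part of 18S ribosomal RNA was 495, 722 and 499 on the EB 12 h arrays and 909, 967 and 657 on the EB 6 h arrays, so that the second 12 h and the third 6 h array crossed. The ratio of 3′ to 5′ signal of Gapdh was 0.72 to 0.76 at 12 h and 0.70 to 0.71 at 6 h. Whether arrays of one hour were hybridized together is not stated, so hour and any processing shared by an hour cannot be told apart. Values below are signals after every array had been brought to one common median.

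Markers of the labelled tissue were present on all 6 arrays. Avp, which encodes vasopressin, stood at 1893, 1466 and 2214 on the EB 12 h arrays and at 2121, 1601 and 2315 on the EB 6 h arrays. Otp, a transcription factor of hypothalamic neuroendocrine neurons, stood at 973, 930 and 961 against 1214, 1265 and 1312. Of the 8 hypothalamic markers 7 lay above the signal filter, and none passed the test between the hours (limma, 3 of the 7 at an unadjusted p under 0.05). Over all genes read by their brightest probe set, 2455 of 12388 (19.8%) had an unadjusted p under 0.05, and the counts of this kind below are to be read against that share. Of the erythroid list 4 genes were read by a probe set of their own, and all 4 lay below the filter, as did 6 of the 7 measured pituitary genes.

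Of 27022 probe sets tested, 558 passed between EB 12 h and EB 6 h (2.06%, limma, adjusted p under 0.05), of which 371 were higher at 12 h (1.37%) and 187 lower (0.692%). They stand for 323 genes with a higher and 124 genes with a lower probe set, with 1 gene, Dnajc1, in both. The 6 arrays did not overlap for 5266 of all probe sets (19.5%) and for 512 of the 558, which is 1.89% of all. Most differences were small. Only 10 of the higher and 14 of the lower probe sets reached a 2-fold difference, and the median log2 difference was 0.50 among the higher and −0.59 among the lower.

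These calls depended on single arrays. Without the second EB 6 h array 0 probe sets passed in limma (3717 at an unadjusted p under 0.05, against 4991 with all arrays), and without the first EB 12 h array 2 passed, Palm as higher and Kmt5b as lower. Without the first EB 6 h array 51 passed, whereas 870 passed without the third EB 12 h array and 1433 without the third EB 6 h array. With only the 6 arrays compared in the fit, in place of all 30, 5 were higher and 2 lower. The 77 probe sets named below that passed kept their sign in each of the 6 fits with 1 array left out. Without the second EB 6 h array 0 of the 77 still passed, and the values of single arrays are given for that reason. Passing and size of difference are separate here: the Gfap difference was 2.16 without that array and 2.17 with it. The share of higher calls also followed the scaling: it was 66.5% here, 39.4% after quantile normalization, 33.6% after scaling to trimmed means and 96% after scaling to the hybridization controls, and without scaling 21515 probe sets were higher and 8 lower. Leaving out the scaling moved all EB differences up alike (median 0.67 against 0.04), so that 33 of the named negative values turned positive.

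**Figure D1:**
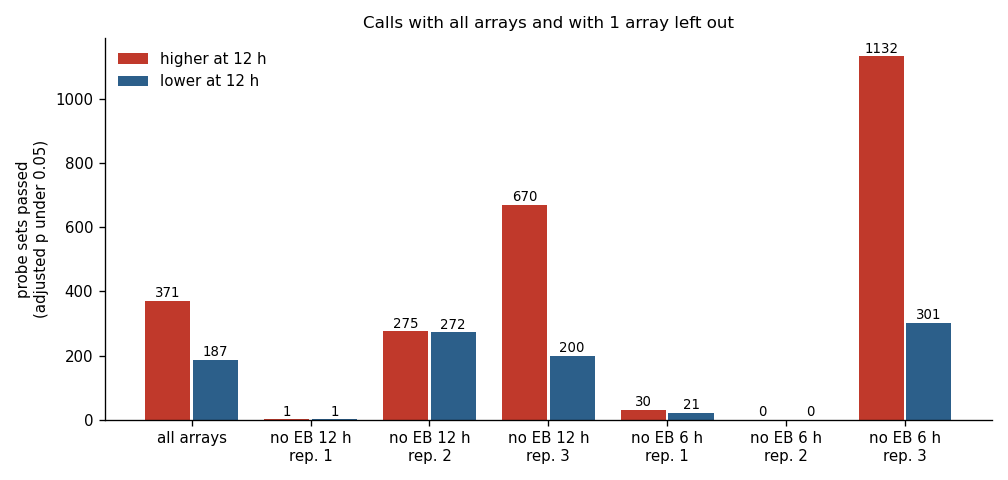
Number of probe sets that passed (vertical axis, adjusted p under 0.05) as higher (red) or lower (blue) at EB 12 h than at EB 6 h, with all arrays and with each of the 6 arrays left out in turn. The count is 371 higher and 187 lower with all arrays, 0 and 0 without the second EB 6 h array, and 1132 and 301 without the third.

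The largest increases at 12 h included genes of glia, with Gfap first among them. Gfap, which encodes an intermediate filament protein of astrocytes, gave a signal of 192, 57.0 and 97.3 on the EB 12 h arrays, against 26.4, 22.4 and 19.8 on the EB 6 h arrays. The lowest 12 h array was thus above the highest 6 h array by more than the whole spread at 6 h, and the first 12 h array stood far above the other two. The log2 difference was 2.17 ± 0.41 (SE, limma adjusted p = 0.0129), or 4.49-fold, and it was 1.71 without the first EB 12 h array and 2.16 without the second EB 6 h array, neither of which passed (limma adjusted p = 0.116 and 0.0739). The second Gfap probe set rose too (329, 97.7 and 109 against 48.4, 39.0 and 61.2, log2 difference 1.64, limma adjusted p = 0.0136, and 1.08 without the first EB 12 h array, not passed), and the third gave a log2 difference of 1.29 that did not pass.

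S100b, the astrocyte calcium-binding protein, stood at 237, 138 and 97.3 on the EB 12 h arrays and at 67.5, 55.4 and 76.6 on the EB 6 h arrays. The first 12 h array was again the highest, and the groups did not overlap (log2 difference 1.16 ± 0.28, limma adjusted p = 0.0313). Mt3, a zinc-binding metallothionein of brain, stood at 1472, 1048 and 1243 against 537, 501 and 1008. Here the third EB 6 h array lay close to the 12 h range, apart from the other two (log2 difference 0.94 ± 0.18, limma adjusted p = 0.0123). Aqp4, the water channel of astrocyte endfeet, stood at 547, 335 and 308 against 219, 221 and 270, a log2 difference of 0.71 ± 0.16 (limma adjusted p = 0.0262), which was 0.45 without the first EB 12 h array and did not pass (limma adjusted p = 0.244).

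The promoters of Gfap and S100b, the 2 astrocyte genes with the largest differences, are printed here because both rose and because their starts differ in the short motifs they hold. They are RefSeq sequences of GRCm38.p6 from 250 bases before to 50 bases after the start, read on the gene's strand, Gfap from chr11:102897151-102897450 on the minus strand and S100b from chr10:76253586-76253885 on the plus strand. Capitals mark matches on either strand to GGTCA, the half-site of an estrogen response element (TGACC on the other strand), to TTGGC, the half-site of the NFI factors that switch on astrocyte genes (GCCAA on the other strand), and to TTCNNNGAA, the spacing of a STAT site.
Gfap: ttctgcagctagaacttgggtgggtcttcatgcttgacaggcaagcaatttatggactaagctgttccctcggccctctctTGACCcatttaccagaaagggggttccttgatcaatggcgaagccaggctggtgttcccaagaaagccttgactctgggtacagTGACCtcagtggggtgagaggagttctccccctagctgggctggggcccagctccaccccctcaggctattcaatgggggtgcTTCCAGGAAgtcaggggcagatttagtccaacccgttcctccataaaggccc
S100b: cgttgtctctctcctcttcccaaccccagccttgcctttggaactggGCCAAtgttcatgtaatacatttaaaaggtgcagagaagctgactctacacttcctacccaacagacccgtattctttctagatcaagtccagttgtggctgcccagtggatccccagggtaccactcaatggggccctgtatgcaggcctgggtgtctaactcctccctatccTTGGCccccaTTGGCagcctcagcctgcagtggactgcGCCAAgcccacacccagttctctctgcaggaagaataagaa
The Gfap window held 2 matches to GGTCA, 1 to TTCNNNGAA and 0 to TTGGC, and the S100b window held 4 to TTGGC and 0 to either of the others. None of these matches overlapped another. Such short motifs are common: GGTCA lay in 40.5% of the 32851 promoters of the table, TTGGC in 46.7% and TTCNNNGAA in 8.3%. Among genes with a promoter in the table, GGTCA lay in 45.3% of the 267 with a higher probe set, 39.2% of the 97 with a lower one and 41.5% of all 10030 tested. The full palindrome, GGTCA followed after 3 bases by TGACC and so holding 2 of these half-sites, lay in 0 of the higher and 0 of the lower genes, in 1 of all tested genes and in 0.07% of the promoters.

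Among the 8 astrocyte and radial glia markers, each read by its brightest probe set, 3 rose (Gfap, Aqp4 and Slc1a3), none fell, and the median log2 difference was 0.47. Over all 12388 genes read in this way, 249 rose (2.01%), 29 fell (0.234%), 8458 had a positive difference and the median was 0.09. The counts of calls and of positive differences in the lists below are to be read against these values. Slc1a3, the glutamate transporter of radial glia and astrocytes, stood at 1208, 1178 and 938 on the EB 12 h arrays against 701, 719 and 934 on the EB 6 h arrays, so that the third 12 h and the third 6 h array nearly met. Its 5 other probe sets gave log2 differences of −0.25 to 0.34 without passing. Hes5, a Notch target of neural progenitors, stood at 297, 278 and 287 against 138, 144 and 133 without passing (log2 difference 1.06, limma adjusted p = 0.0524). The early radial glia marker Fabp7 and the pan-astrocyte enzyme gene Aldh1l1 gave log2 differences of −0.09 and 0.05, and neither passed.

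More glial genes passed, and the following were chosen after their values were seen. All but Gja1 came from outside the lists. Apoe, the main lipid carrier made by astrocytes, stood at 3175, 3065 and 3379 on the EB 12 h arrays against 2808, 2140 and 2210 on the EB 6 h arrays (log2 difference 0.44 ± 0.11, limma adjusted p = 0.0405). Clu, which encodes the chaperone clusterin, differed by 0.59, the neurotensin receptor gene Ntsr2 by 0.74, the GABA transporter gene Slc6a11 by 0.52, the phosphatase gene Ptprz1 by 0.45 and S100a1 by 0.70 on the log2 scale. For Gja1, the connexin of astrocyte gap junctions, 1 of 6 probe sets passed, with a log2 difference of 0.69. Gja1 is a member of the astrocyte list above, where its brightest probe set did not pass. The 3 other Clu probe sets gave 0.25 to 0.34 and the 2 other Ptprz1 probe sets 0.30 to 0.33, without passing. Slc6a11, Ntsr2 and Ptprz1 were lowest at 12 h and highest at 6 h on the third array of each group. For Ptprz1 the groups overlapped there, at 1519 on the EB 12 h array against 1563 on the EB 6 h array.

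**Figure D2:**
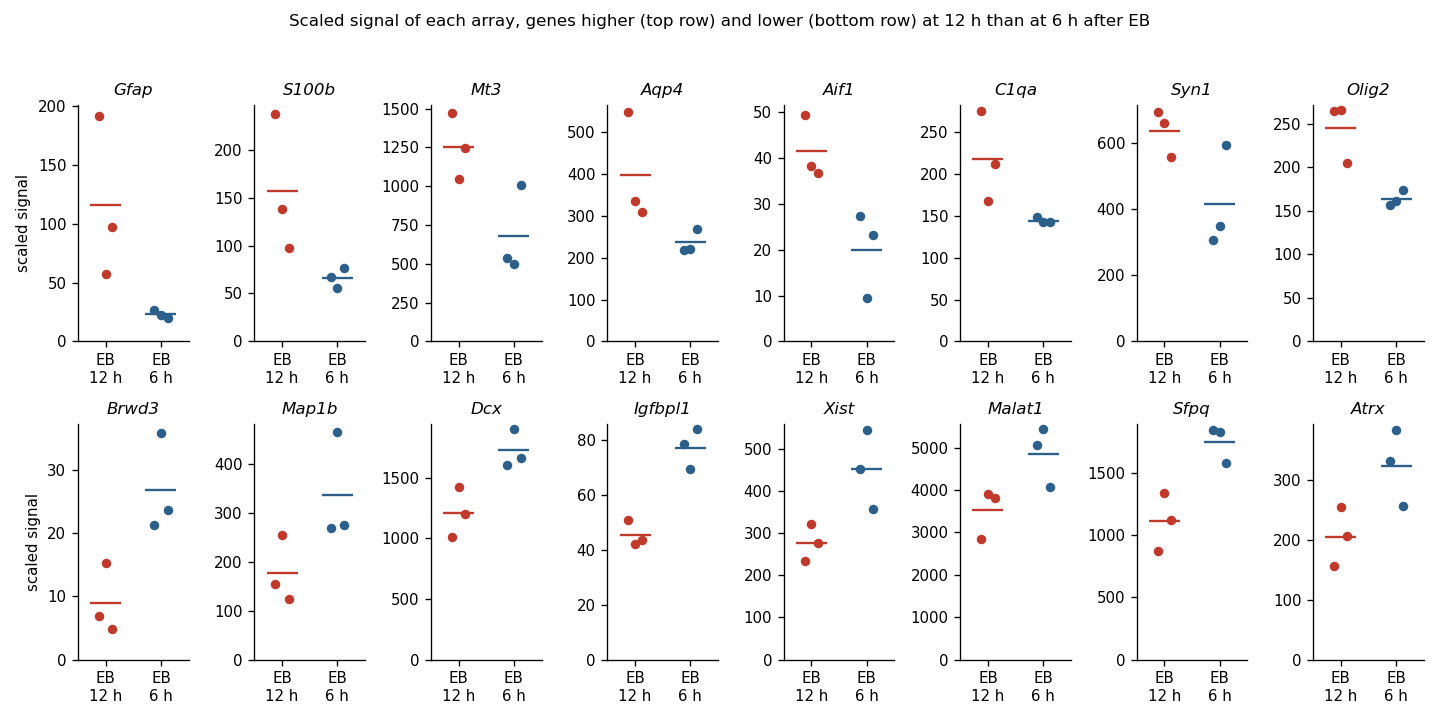
Scaled signal of each array (points, vertical axis) with the group mean (line) at EB 12 h (red, left) and EB 6 h (blue, right), for 8 genes that rose and 8 that fell, of which Dcx and Malat1 are positive without scaling. The Gfap points lie at 192, 57.0 and 97.3 against 26.4, 22.4 and 19.8, and for Syn1 the third EB 6 h array, at 595, lies inside the EB 12 h range.

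Microglial genes rose beside the astrocyte genes. Of 8 microglia and macrophage markers 3 passed as higher (Aif1, Csf1r and C1qa), and the median was 0.59. All 8 had a positive difference, as did 8458 of all 12388 genes. Aif1, the calcium-binding protein known as IBA1, stood at 49.4, 38.3 and 36.6 on the EB 12 h arrays and at 27.4, 9.36 and 23.2 on the EB 6 h arrays. The low second EB 6 h array stood apart from the others, and the difference was 1.18 ± 0.31 on the log2 scale (limma adjusted p = 0.0407) and 0.70 without that array. With signals under 16 set to 16 the Aif1 difference was 0.92 and did not pass (limma adjusted p = 0.0527). Csf1r, the growth factor receptor that microglia need to survive, stood at 731, 510 and 480 against 411, 308 and 378 (log2 difference 0.63 ± 0.15, limma adjusted p = 0.0266). C1qa, a chain of the complement protein that tags synapses for removal, stood at 275, 168 and 212 against 148, 143 and 142 (log2 difference 0.57, limma adjusted p = 0.043). Chosen after their values were seen, C1qc (0.77) and the lysosomal protease gene Ctss (0.47) rose as well. The microglial receptor genes P2ry12 and Cx3cr1 gave log2 differences of 0.44 and 0.09, and neither passed. Because whole tissue was measured, more cells of a type and more RNA per cell cannot be told apart, here and for every other list.

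Markers of the membranes around the brain varied between arrays together with some of these genes. All 10 leptomeningeal fibroblast markers had a positive difference (8458 of all 12388 genes did), with a median of 0.66 and a range of 0.33 to 1.32. None of the 10 passed in limma (1 of 10 at an unadjusted p under 0.05). Their summed signal ranged from 1755 to 4770 over the EB 12 h arrays and from 1672 to 3168 over the EB 6 h arrays. The collagen gene Col1a2 shows the pattern, at 2272, 809 and 1913 against 1590, 795 and 863: the first and the third 12 h arrays and the first 6 h array were high. Mrc1, a macrophage marker counted in the microglial list and known from macrophages of the membranes and vessels, had the same pattern, at 196, 85.0 and 135 against 118, 66.9 and 63.3. The first EB 12 h array was thus high for astrocyte, microglial and meningeal genes alike. The summed signal of the whole microglial list ranged from 1142 to 1775 over the EB 12 h arrays and from 842 to 1032 over the EB 6 h arrays. The part of the dissected membranes in the glial differences was not tested.

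The oligodendrocyte lineage was represented by 6 measured markers, of which 2 rose. Olig2, the transcription factor that specifies the lineage, stood at 265, 266 and 205 on the EB 12 h arrays against 157, 161 and 174 on the EB 6 h arrays (log2 difference 0.57 ± 0.14, limma adjusted p = 0.0281). Olig1, its partner, differed by 0.52, with overlap between the third 12 h array (880) and the third 6 h array (975). Mbp, a protein of myelin itself, gave a log2 difference of 0.10 and did not pass. Aspa, the enzyme of oligodendrocytes that splits N-acetylaspartate, was among the largest differences, at 64.5, 52.4 and 76.5 against 34.3, 27.3 and 21.7 (log2 difference 1.22 ± 0.30, limma adjusted p = 0.0317).

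Other marker lists held no call. In limma none of 8 endothelial, 8 mural, 8 ependymal and choroid plexus, 5 telencephalic or 7 thalamic markers passed, and their median log2 differences were 0.11, 0.18, 0.49, 0.11 and 0.12 (1, 1, 1, 0 and 0 members at an unadjusted p under 0.05). The thalamic factor gene Tcf7l2 varied widely between arrays, at 257, 919 and 204 on the EB 12 h arrays against 145, 335 and 213 on the EB 6 h arrays. The second array of each group was the highest.

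The other large increases came from genes with varied roles. Dst, which encodes the cytoskeletal linker dystonin, gave 17.5, 27.2 and 28.5 on the EB 12 h arrays and 5.93, 7.37 and 15.3 on the EB 6 h arrays (log2 difference 1.45 ± 0.29, limma adjusted p = 0.0143), at a low signal and with 2 other probe sets at 0.03 and 0.16. With signals under 16 set to 16 the Dst difference was 0.58 and did not pass. Anxa6, a membrane-binding annexin, differed by 1.00 and its 3 other probe sets by 0.29 to 0.48. Tmem107, a component of the ciliary transition zone, stood at 974, 851 and 855 against 423, 393 and 545, and 2 of its 3 probe sets passed. Pnma3 (0.98), the lectin receptor gene Cd302 (0.95), Adamtsl3 (0.97), Efcab12 (1.00) and the pseudogene Slc2a4rg-ps (1.03) passed on their only probe set, the transcription factor gene Nfic on 1 of 2 (0.91, the other −0.13) and the actin-binding calponin gene Cnn3 on 1 of 6 (1.00, the others −0.14 to 0.29).

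Genes of the synaptic vesicle rose in part. Of 21 measured members 4 rose (Syn1, Syp, Vamp2 and Snap25), against 2.01% of all genes, none fell, and the median was 0.16. Syn1, the synapsin that tethers vesicles, stood at 695, 662 and 557 on the EB 12 h arrays against 306, 350 and 595 on the EB 6 h arrays (log2 difference 0.67 ± 0.15, limma adjusted p = 0.0249). Syp, the vesicle protein synaptophysin, stood at 1734, 1778 and 1415 against 898, 984 and 1525. In both genes the third EB 6 h array, the brightest of its group, lay within the 12 h range and the other two EB 6 h arrays lay below it. Snap25, a fusion protein of the terminal, differed by 0.27 and was the only 1 of 8 neuronal markers to pass. Tubb3, Map2 and Gap43 gave log2 differences of −0.06, −0.03 and −0.04.

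Among metabolic and stress lists the calls were few, and over all genes 2.01% passed as higher, so that 1 call in a list is near that share. In the cholesterol and fatty acid list 3 of 23 genes rose and none fell: Dhcr7 (0.48), which makes the last step to cholesterol, Pmvk (0.41) and Lss (0.36). For Dhcr7 the groups overlapped, with the third EB 12 h array (357) below the third EB 6 h array (381). The median of the list was 0.28 and 21 of the 23 differences were positive, against 8458 of all 12388 genes. Among the positive ones were the pathway enzymes Hmgcs1 (0.21) and Sqle (0.35), which did not pass. Cryab, a small heat shock protein, was the only 1 of 15 heat shock genes to pass, at 146, 79.0 and 112 on the EB 12 h arrays against 70.7, 55.0 and 53.3 on the EB 6 h arrays. Single genes passed as higher in the lists of the unfolded protein response (Pdia6, 0.38, of 22), of hypoxia and glycolysis (Ndrg1, 0.54, of 20), of the extracellular matrix (Bcan, 0.37, of 38), of the cell cycle (Cdkn1a, 0.53, of 28), of oxidative phosphorylation (Sdhc, 0.38, of 26) and of thyroid hormone response (Thra, 0.33, of 10). Other probe sets passed for Ndrg1 and Bcan but not for Pdia6, Sdhc, Cdkn1a or Thra, and that of Pdia6 and of Sdhc gave −0.04. The groups overlapped for Sdhc and Thra, with the third EB 6 h array (1172 and 2090) above the lowest EB 12 h array (1169 and 2061). Cdkn1a encodes an inhibitor of cell division and is also in the list of 19 glucocorticoid-responsive genes, where it was the only call. Mki67 and Top2a, markers of dividing cells, gave log2 differences of 0.38 and 0.41 and did not pass. Of 18 immediate early genes only Jun rose, at 391, 360 and 418 against 218, 258 and 267 (log2 difference 0.66 ± 0.18, limma adjusted p = 0.0468), while Fos differed by 0.03.

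Several lists held no call in limma. None of 19 clock genes passed (3 at an unadjusted p under 0.05), with log2 differences of 0.08 for Arntl and −0.23 for Clock. None of 23 cytosolic ribosomal protein genes passed (3 had an unadjusted p under 0.05), their median was −0.08, 3 differences were positive, and the negative values of Rpl4 (−0.09) and Rpl6 (−0.06) were positive without scaling, at 0.54 and 0.57. The lists of 25 cytoskeletal, 12 interferon, 17 apoptosis and 18 fasting genes had 8, 0, 2 and 5 members at an unadjusted p under 0.05 and also held no call.

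Among the 14 measured sex steroid receptors and estrogen-responsive genes 1 rose, Igfbp4, a binding protein that holds insulin-like growth factors. It stood at 971, 635 and 919 on the EB 12 h arrays and at 550, 430 and 563 on the EB 6 h arrays, without overlap (log2 difference 0.70 ± 0.16, limma adjusted p = 0.0249), and 3 of its 5 probe sets passed. Esr1, the estrogen receptor α gene, stood at 81.3, 81.0 and 64.1 against 61.9, 60.8 and 47.7 and did not pass (log2 difference 0.41 ± 0.21, limma adjusted p = 0.295). Pgr, the progesterone receptor gene that estradiol induces in the hypothalamus, stood at 212, 190 and 175 against 171, 165 and 191, with overlap (log2 difference 0.13, limma adjusted p = 0.656). Greb1, another estrogen target, differed by 0.31 without passing. The median of the list was 0.08.

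The genes that the study had followed by RT-PCR did not pass at this step in limma (1 of 12 at an unadjusted p under 0.05). Klc1, a kinesin light chain gene, and Nedd4, a ubiquitin ligase gene, differed by 0.13 and 0.05 on the log2 scale. The cortical factor gene Neurod6 stood at 9.22, 68.4 and 70.2 on the EB 12 h arrays against 63.8, 78.1 and 88.2 on the EB 6 h arrays, so that its log2 difference of −1.10 rested on the first EB 12 h array. Meis2, a homeobox gene, stood at 282, 265 and 92.9 against 83.6, 256 and 121, with wide overlap. Fn1 (0.57), Igf2 (0.54), Vtn (0.34), Apod (0.27) and Ptgds (0.15), which encode extracellular or secreted proteins, were higher on the first and the third EB 12 h arrays than on the second, as the meningeal markers were, for example Igf2 at 2460, 991 and 2294 against 1859, 917 and 1077.

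The hypothalamic neuropeptide genes gave no call among 22 in limma (4 had an unadjusted p under 0.05), and the median was 0.15. Hcrt, which encodes orexin, stood at 86.6, 63.6 and 51.6 on the EB 12 h arrays against 44.1, 124 and 55.2 on the EB 6 h arrays. In vehicle mice it stood at 159, 167 and 146 at 12 h against 58.8, 58.5 and 47.3 at 6 h, without overlap and with a log2 difference of 1.53 (limma adjusted p = 0.00568). The difference between the 2 steps was −1.56 ± 0.48 and did not pass (limma adjusted p = 0.579). Pmch, of the neighbouring melanin-concentrating hormone neurons, differed by 0.07 with EB and by 0.98 with vehicle, a difference that did not pass either (limma adjusted p = 0.644).

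The probe sets that were lower at 12 h had other properties than the higher ones. Of the 187, 26.2% carried no gene symbol, against 4.58% of the 371 higher ones and 14.6% of all tested. Their genes spanned a median of 50.3 kb, against 23.5 kb for the higher genes and 24.9 kb for all, and their median mean signal was 128 against 289 and 125. Over all lower genes the 313 other probe sets that did not pass had a median of −0.10, with 67.7% negative, and the 361 of the higher genes had a median of 0.16, with 73.1% positive.

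Pisd-ps3, a pseudogene of phosphatidylserine decarboxylase, showed the largest decrease, at 158, 149 and 69.3 on the EB 12 h arrays against 393, 519 and 550 on the EB 6 h arrays (log2 difference −2.04 ± 0.49, limma adjusted p = 0.0288). Of its 5 probe sets 3 passed and all were negative, though probes to a pseudogene can also take up RNA of near-identical copies. Brwd3, which encodes a bromodomain protein, stood at 6.92, 15.3 and 4.83 against 21.3, 35.7 and 23.6 (log2 difference −1.71 ± 0.30, limma adjusted p = 0.00943), at a low signal, and its 2 other probe sets gave −0.12 and 0.24. With signals under 16 set to 16 the Brwd3 difference was −0.71 and did not pass (limma adjusted p = 0.0745). Enah, a regulator of actin at the growth cone, had 1 probe set at 41.4, 70.0 and 50.1 against 103, 122 and 96.3 (log2 difference −1.02) and 5 others between −0.36 and 0.34, of which 1 also fell. Map1b, a microtubule protein of growing axons, stood at 156, 256 and 124 against 271, 466 and 276 (log2 difference −0.94), with 2 others at −0.41 and −0.24. The histone methyltransferase genes Nsd1 (−1.08) and Kmt5b (−0.98) fell on 1 probe set each, with the others at −0.26 to −0.05 and −0.75 to −0.01. Rprd2, an RNA polymerase II partner gene, fell on 1 probe set (−1.31), with 6 others at −0.07 to 0.49. Of the genes of RNA-binding or helicase proteins, Rbm12 gave a log2 difference of −1.20 with its others at −0.12 to 0.03, Helz −0.82 with others at −0.11 to 0.21, and Zc3h15 −0.81 with others at −0.13 to 0.14. The exocyst gene Exoc5 (−1.38), Casp14 (−1.15), 4932438A13Rik (−1.01), Magi3 (−0.96) and Sh3rf1 (−0.96) completed the 15, each passing on 1 probe set. Casp14 had no other probe set tested, and the other one of Exoc5 gave −0.07. The others lay at −0.13 to 0.17 for 4932438A13Rik, −0.24 to 0.13 for Magi3 and −0.21 to 0.15 for Sh3rf1.

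In the list of 32 splicing and RNA-binding genes 2 fell (Malat1 and Hnrnpdl), 1 rose (Tra2a, 0.45) and the median was −0.06. Malat1, a long RNA retained in the nucleus at splicing speckles, stood at 2849, 3896 and 3817 on the EB 12 h arrays against 5069, 5434 and 4067 on the EB 6 h arrays (log2 difference −0.47 ± 0.10, limma adjusted p = 0.0178). Of its 7 probe sets 3 fell, and the 6 besides this one ran from −0.66 to 0.54. Chosen after its values were seen, Xist, the nuclear RNA that coats the inactive X chromosome, stood at 235, 320 and 275 against 452, 543 and 358 (log2 difference −0.69 ± 0.12, limma adjusted p = 0.00943), and 2 of its 3 probe sets fell. Splicing factors and chromatin regulators chosen in the same way fell on 1 or, for Chd4, 2 of their probe sets, with log2 differences of −0.67 for Sfpq, −0.41 for Sf3b1, −0.42 for Hnrnpu, −0.29 for Hnrnpk, −0.47 for Chd4, −0.66 for Atrx and −0.42 for Dnmt3a, and without scaling those of Malat1, Hnrnpdl, Sf3b1, Hnrnpu, Hnrnpk, Chd4 and Dnmt3a were positive. Without the first EB 12 h array the Chd4 difference was −0.28, and after scaling to the hybridization controls those of Hnrnpdl and Hnrnpk were −0.23 and −0.16, none of which passed. The other probe sets of Sfpq, Sf3b1, Hnrnpu, Atrx and Dnmt3a lay on both sides of 0, and the brightest of Hnrnpu gave a log2 difference of 0.29 that did not pass.

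The 3 genes Dcx, Cd24a and Igfbpl1, known from immature neurons, were chosen after their values were seen and stand for no list, and the differences of Dcx and Cd24a were positive without scaling (0.11 and 0.13, not passed). Dcx, which encodes doublecortin, the microtubule protein of migrating neurons, stood at 1011, 1427 and 1200 on the EB 12 h arrays against 1607, 1902 and 1667 on the EB 6 h arrays (log2 difference −0.52 ± 0.10, limma adjusted p = 0.0123), and its 3 other probe sets were negative without passing. Cd24a, a surface protein of young neurons, differed by −0.50, and Igfbpl1 stood at 50.8, 42.0 and 43.4 against 78.5, 69.2 and 83.8 (log2 difference −0.77).

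The vehicle mice showed a larger count over the same hours. Between vehicle 12 h and vehicle 6 h 1885 probe sets were higher (6.98%) and 650 lower (2.41%), together 9.38%. Of the 371 probe sets higher with EB, 188 were higher with vehicle too, which is 50.7% of the EB calls and 9.97% of the vehicle calls. Of the 187 lower with EB, 74 were lower with vehicle, 39.6% of the EB and 11.4% of the vehicle calls, and 0 were called in opposite directions. In all, 533 of the 558 EB calls had the same sign in vehicle mice. Over all probe sets the EB and vehicle differences correlated at 0.42, with medians of 0.04 and 0.06. The 12 h arrays of both treatments were the brightest before scaling, and the part of this in the equal signs was not tested. The median log2 difference of the higher EB calls was 0.50 with EB and 0.35 with vehicle, and that of the lower ones −0.59 and −0.40. All 30 arrays, the vehicle arrays included, entered the error estimate and the signal filter behind these calls.

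**Figure D3:**
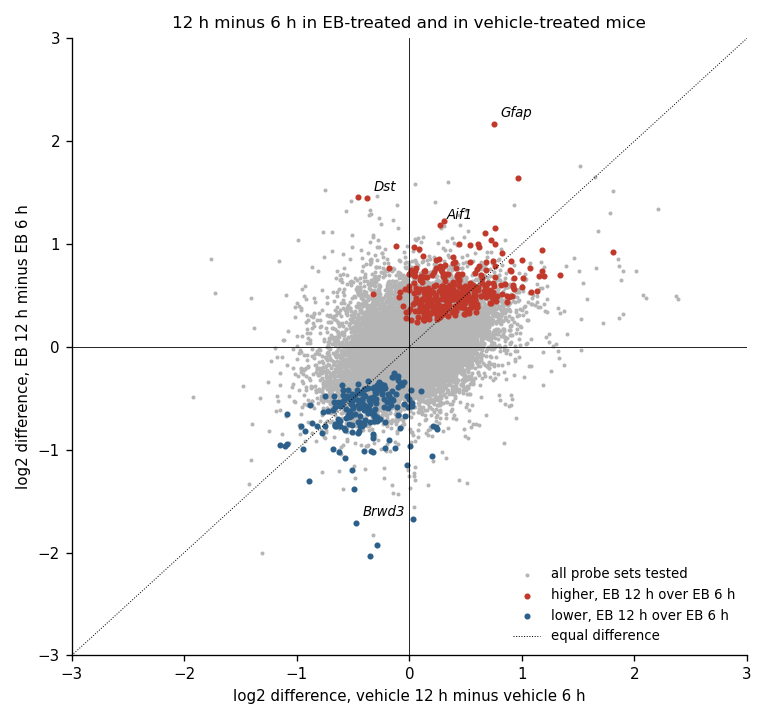
Log2 difference between 12 h and 6 h in EB mice (vertical axis) against that in vehicle mice (horizontal axis) for all 27022 probe sets (grey), with the 371 higher (red) and 187 lower (blue) EB calls and the line of equal difference (dotted). Of the calls 533 lie in the quadrants of equal sign, with Gfap at 2.17 with EB and 0.75 with vehicle and Dst at 1.45 and −0.38. The correlation over all probe sets is 0.42.

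A test of whether the step differed with EB made 0 calls in limma (lowest adjusted p = 0.221), while 1928 probe sets (7.13%) had an unadjusted p under 0.05 and the methods' test on unscaled signals made 4 calls after adjustment. The lowest p belonged to Pon2, a paraoxonase gene, at 282, 245 and 269 on the EB 12 h arrays against 169, 190 and 198 on the EB 6 h arrays, and at 164, 221 and 171 in vehicle 12 h mice against 222, 238 and 228 in vehicle 6 h mice. The directions were thus opposite in the 2 treatments without overlap, and the difference of the steps was 0.84 ± 0.15. Dst differed by 1.83 ± 0.41 between the steps and Pnma3 by 1.09 ± 0.28. Dio2, the deiodinase that activates thyroid hormone in glia, differed by 0.50 with EB and −0.94 with vehicle, and a low Ndrg1 probe set by 0.85 and −1.77. In the other direction stood Hnrnpd (−0.33 and 0.57), Spin2c (−0.35 and 0.35), Zfp446 (−0.26 and 0.47), Zdhhc14 (−0.13 and 0.41) and Usp14 (−0.14 and 0.52), and without scaling all 5 of these EB differences were positive. None of the 5 EB differences passed (limma adjusted p between 0.110 and 0.559). The EB differences of the other probe sets ran from 0.05 to 0.47 for Zdhhc14, −0.14 to 0.14 for Usp14 and −0.21 to 0.04 for Hnrnpd. Spin2c and Zfp446 had no other probe set tested. These examples were picked from probe sets whose EB arrays of the 2 hours did not overlap, so that property is no result. Over all probe sets 1959 were free of overlap in both treatments with the same sign and 107 with opposite signs.

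The vehicle step of the glial lists is set beside their EB step here, with no test of the lists. The astrocyte list had a median of 0.47 with EB and 0.37 with vehicle, and Gfap in vehicle mice stood at 40.6, 74.3 and 43.7 at 12 h against 22.3, 39.5 and 31.6 at 6 h. The microglial list had a median of 0.59 with EB and −0.01 with vehicle, where 0 of 8 passed. The leptomeningeal list had 0.66 with EB and −0.45 with vehicle. The EB step exceeded the vehicle step by 0.52 for Csf1r, 0.51 for C1qa, 0.95 for C1qc and 0.38 for Apoe on the log2 scale, and none of these passed (limma adjusted p between 0.564 and 0.644). The synaptic list was larger with vehicle, with 10 of 21 genes higher and a median of 0.35.

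**Figure D4:**
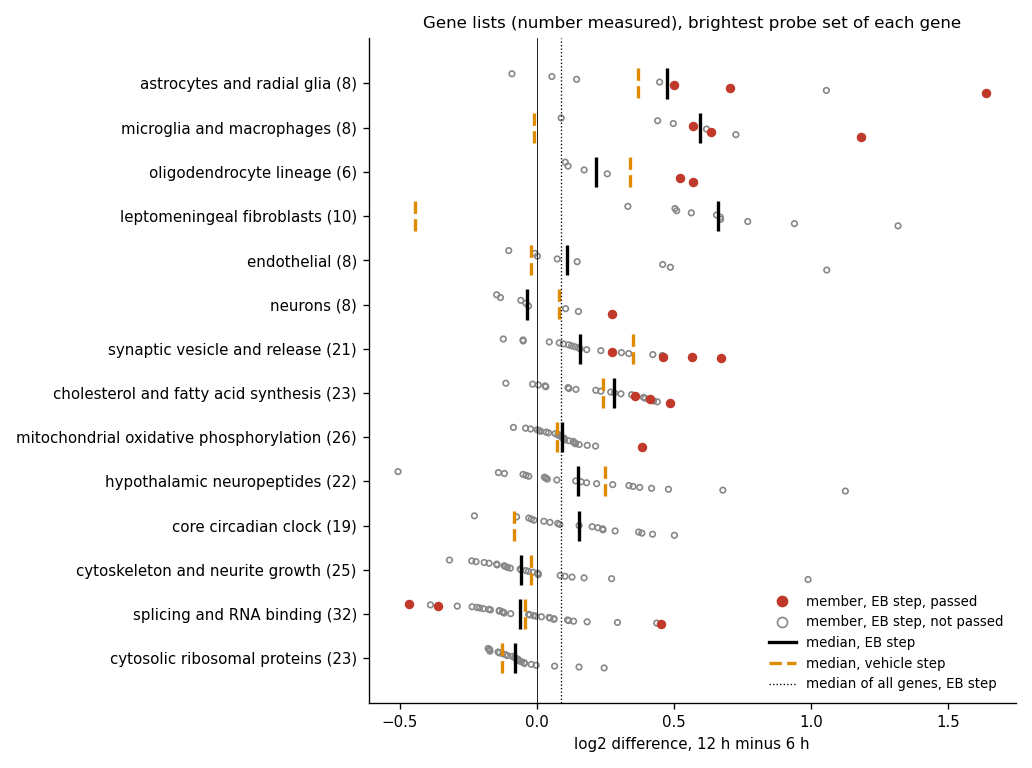
Log2 difference between EB 12 h and EB 6 h for each measured gene of 14 lists (points, filled where passed), with the list median in EB mice (black) and in vehicle mice (dashed orange), and the median of all genes (dotted, 0.09). The astrocyte, microglial and leptomeningeal medians in EB mice are 0.47, 0.59 and 0.66, and in vehicle mice 0.37, −0.01 and −0.45; without scaling, the ribosomal genes Rpl4 and Rpl6 turn positive.

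Seen over all 5 collection times, several of these genes stood apart at 12 h only. Gfap averaged 26.1 ± 4.46, 25.4 ± 2.77, 22.9 ± 3.34, 115 ± 69.1 and 29.0 ± 6.65 at the 5 EB times in order (SD, n = 3 each), and 26.3, 27.4, 31.1, 52.9 and 33.6 at the vehicle times. The 12 h point was the highest in both treatments, and its spread was the widest. Mt3 averaged 1255 ± 212 at EB 12 h, with the other EB times between 520 and 682. Dcx averaged 1213 ± 208 at EB 12 h, with the other EB times between 1725 and 2091, and its vehicle course had its lowest point at 12 h as well (1174 ± 94.8). Sfpq was also lowest at 12 h in both. Xist averaged 838, 810, 451, 277 and 543 at the EB times, so that it was already lower at 6 h than before. The 12 h arrays were the brightest of the series before scaling, and the part of this in these peaks was not tested.

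**Figure D5:**
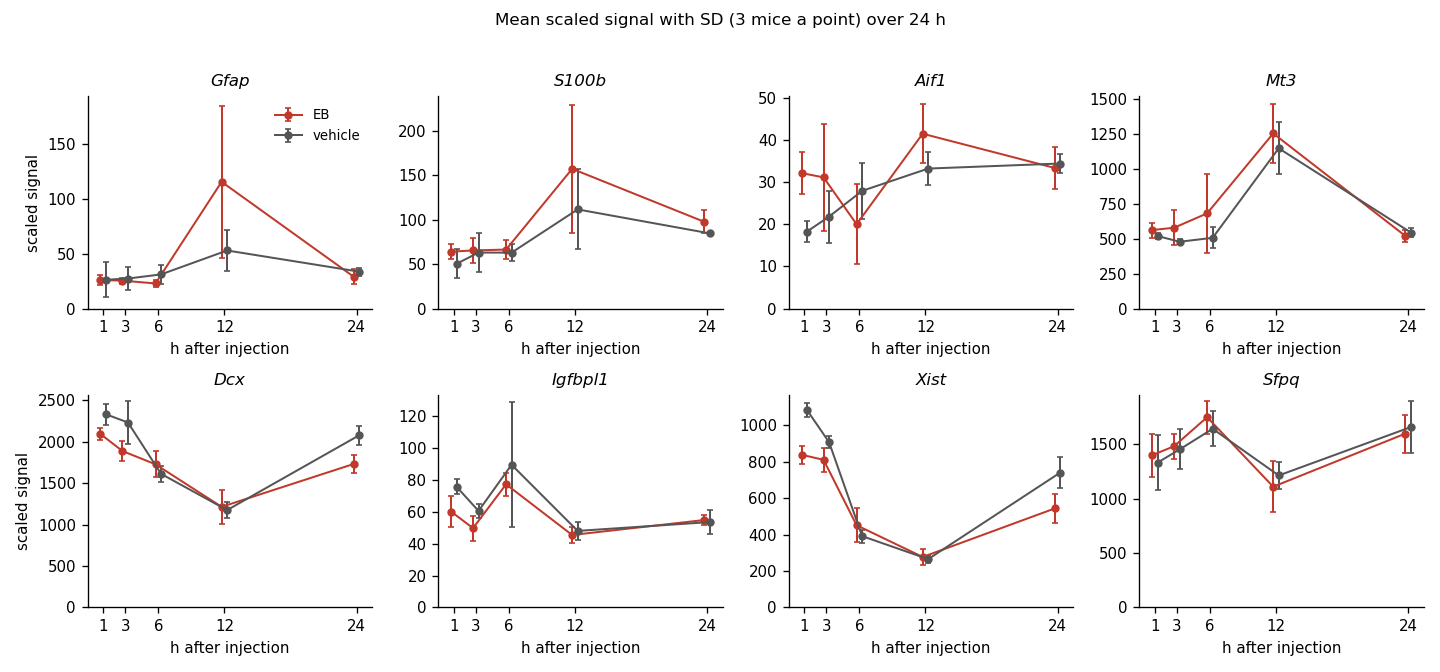
Mean scaled signal with SD of 3 mice (vertical axis) at the 5 collection times (horizontal axis, h) after EB (red) or vehicle (grey) for 4 genes that rose and 4 that fell between EB 6 h and EB 12 h. Gfap reaches 115 at EB 12 h and 52.9 at vehicle 12 h and is back at 29.0 and 33.6 at 24 h, and Dcx is lowest at 12 h, at 1213 with EB and 1174 with vehicle; without scaling the Dcx difference between EB 12 h and EB 6 h is positive.

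The study applied limits of 2-fold and 0.5-fold to EB against vehicle at each time, which is another comparison. Counted by size alone at these limits, 57 probe sets were at 2-fold or more and 27 at 0.5-fold or less in EB 12 h relative to EB 6 h mice (ratio of mean scaled signals). Without the filter on dim probe sets these counts were 1585 and 2117.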

How the data were processed

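RNA of single hypothalami had been hybridized to one array each, and the authors deposited MAS5 signals, a linear intensity for each of 45037 probe sets besides 64 controls. The sources used here state neither the MAS5 version nor its target intensity. Here the arrays were brought to one median, the mean of their medians. Signals under 1 were set to 1, log2 was taken, and the 40% of probe sets with the lowest mean were left out, which kept 27022. The means of the 10 groups were fitted over all 30 arrays with limma 3.58.1 in R 4.3.3, with an error trend on signal and Benjamini-Hochberg adjustment over all probe sets kept, and the fit was tested on simulated data. Each list gene was read by its brightest probe set. Names came from GEO's platform annotation, which gave 34945 probe sets 1 symbol, 932 several and 9160 none.

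Named genes were the 15 calls with the largest difference in each direction whose groups did not overlap, the 5 probe sets in each direction with the lowest unadjusted p for the difference of the steps and no overlap, up to 4 calls and the first 2 members of each list, and the genes of the study's RT-PCR. Palm, further list members and the genes so marked were chosen after their values were seen. The members and lists were chosen with earlier results of these data known. Alternatives changed the scaling, the floor, the filter, array weights, the replicate numbers, the arrays fitted and the test. The 3 arrays of a group limit the precision.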

Additional observations from a re-analysis of the deposited data

Results flagged for a closer look

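Genes of the pituitary gland, which lies against the hypothalamus, gave signals on single arrays although their probe sets were below the signal filter and entered no test. Cga, the common subunit of the pituitary glycoprotein hormones, stood at 166, 129 and 2.66 on the EB 12 h arrays (mean 99.14), against 7.14, 2.65 and 4.40 on the EB 6 h arrays, with a median of 2.63 over all 30 arrays. In vehicle 12 h mice it stood at 3.03, 92.9 and 6.15. Tshb, the thyrotropin subunit, stood at 31.9, 41.3 and 9.84 on the EB 12 h arrays (mean 27.68), against 6.47, 16.1 and 2.44 on the EB 6 h arrays. The first and second EB 12 h arrays were high for both genes. Gh, Prl and Lhb stayed at 12.7 or below on all 6 arrays.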

How the results depend on the processing

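Without scaling, 21515 probe sets were higher and 8 lower with EB (median shift 0.67 on the log2 scale), and 24462 and 3 with vehicle. Quantile normalization gave 239 and 368 (EB) and 1120 and 1168 (vehicle), trimmed means 241 and 477, and 1036 and 1513, hybridization controls (an alternative chosen after seeing the data, median shift 0.17) 2931 and 123 with EB. No filter gave 209 and 107 (EB). Array weights gave 1383 and 466 (EB), 3343 and 1440 (vehicle) and 1 higher for the difference of the steps. Only the arrays compared in the fit gave 5 and 2 (EB). The methods' test on unscaled signals gave 22555 and 7 (EB), 24943 and 0 (vehicle) and 0 and 4 (difference) after Benjamini-Hochberg, and 22882 and 7, 25007 and 0, and 218 and 4709 unadjusted. The replicate block, whose numbers only share a label (correlations of same-numbered deviations −0.02, 0.22 and −0.06), gave 351 and 198 with EB. Leaving out 1 array gave 0 to 1132 higher and 0 to 301 lower (EB), 622 to 1584 and 193 to 686 (vehicle), and 0 to 3 and 0 (difference). At 2-fold or more and 0.5-fold or less there were 2169 and 3 without scaling, 1585 and 2117 without a filter, and 44 to 131 and 26 to 79 with 1 array left out. Leaving out the scaling moved all EB differences up alike and turned 33 named values positive. The 22 of these that passed with or without scaling were Zdhhc14 0.50, Usp14 0.49, Rpl4 0.54, Rpl6 0.57, Ndufa1 0.59, Malat1 0.16, Hnrnpdl 0.27, Srsf2 0.39, Tubb2a 0.52, Tubb2b 0.48, Pecam1 0.62, Rgs5 0.57, Rbfox3 0.49, Tubb3 0.57, Pomc 0.59, Dcx 0.11, Cd24a 0.13, Sf3b1 0.22, Hnrnpu 0.21, Hnrnpk 0.34, Chd4 0.16 and Dnmt3a 0.20 on the log2 scale, and no value that passed in either fit changed sign under another alternative. The other alternatives left the counts within 1.5 times. Causes beyond the settings themselves were not tested.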
